A study of Homo sapiens with 6 samples.

Results

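The genes of the CTLH ubiquitin ligase complex were examined in SK-BR-3, an established HER2-overexpressing breast cancer cell line. They are 10 genes chosen by symbol from the 30327 genes of the count table, namely RMND5A, RMND5B, MAEA, RANBP9, RANBP10, ARMC8, WDR26, GID8, GID4 and YPEL5. The complex was picked because RMND5A was lower in the si_GRB2 libraries, so the values of RMND5A are given as a description without a test. The other 9 genes entered as subunits of the same complex. All 10 had enough reads to be among the 15801 genes tested. Poly(A) RNA was sequenced in 6 libraries, of which 3 were controls with a nontargeting siRNA (si_NC) and 3 came from cells with a GRB2-directed siRNA (si_GRB2). The descriptions of the treated libraries name si_GRB2, whereas their titles and genotype labels name GRB2 overexpression. GRB2 itself had 123.9 to 129.5 CPM (TMM-normalized counts scaled to a common library size of 1e6 reads) in si_NC and 27.8 to 29.6 CPM in si_GRB2, the direction of a knockdown. Only 1 siRNA against GRB2 is described in the methods, so the loss of GRB2 and other actions of that siRNA cannot be told apart in this design. Nothing in the labels says that the libraries of a group came from separate cultures, so the tests measure the spread between these libraries, which may be technical.

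CTLH complexes attach ubiquitin to proteins and are the human counterpart of the yeast GID ligase, which marks gluconeogenic enzymes for degradation when glucose returns. The catalytic part is a pair of RING-type subunits, MAEA together with RMND5A or its paralog RMND5B. RANBP9 or RANBP10, GID8 and ARMC8 form the scaffold, WDR26 or muskelin (MKLN1) joins scaffolds into larger assemblies, GID4 is a substrate receptor, and YPEL5 binds the complex and can restrain it. The conjugating enzyme that works with it is UBE2H.

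The libraries held between 24810378 and 28532480 counted reads. Expression of 6 epithelial and HER2-amplicon genes (EPCAM, KRT8, KRT18, KRT19, ERBB2, GRB7) summed to 17380 to 17770 CPM in si_NC and 14540 to 15120 CPM in si_GRB2. Of these markers, 5 fell and 1 (ERBB2) rose, where 15.5% of all tested genes fell and 15.2% rose. The 6 markers of leukocytes, endothelium and fibroblasts (PTPRC, CD3E, PECAM1, VWF, COL1A1, DCN) summed to between 5.29 and 7.10 CPM in every library. Of these, PTPRC, PECAM1 and DCN had at most 2 reads in any library. CD3E had 1 to 5 reads per library, VWF 23 to 49 and COL1A1 104 to 149. In bulk RNA, a change in every cell and a change in some of the cells cannot be told apart.

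RMND5A (ENSG00000153561.13), the RING subunit whose fall led to the choice of the complex, lies on the plus strand of chromosome 2 of GRCh38 from 86720291 to 86778041. Its level was 78.55, 79.96 and 75.86 CPM in si_NC, against 51.74, 52.51 and 50.21 CPM in si_GRB2. Every si_GRB2 library was below every si_NC library, by far more than the spread within either group. The means were 78.1 ± 2.08 and 51.5 ± 1.17 CPM (SD, n = 3 each) and the log2 fold change was −0.60. The fall left RMND5A at 0.659 of its control level. It was the only one of the 10 genes past the fold limit of 1.5, which is 0.585 on the log2 scale. The next lowest value in the complex was that of RANBP9, at −0.07. Over all tested genes, 2.52% passed both this limit and an adjusted p under 0.01, and 1.69% did so with a fall. By the size of its fall, RMND5A ranked 505 of 15801.

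RMND5B (ENSG00000145916.19, chromosome 5 from 178130996 to 178150568, plus strand), the alternative RING subunit, had 85.7, 79.9 and 76.1 CPM in si_NC and 90.8, 84.8 and 84.1 CPM in si_GRB2. In CPM the groups overlapped, because si_NC replicate 1 lay above 2 of the si_GRB2 libraries. The log2 fold change was 0.10, with a 95% interval from 0.01 to 0.20 and an adjusted p of 0.0979 (edgeR's quasi-likelihood test). With single libraries left out it ran from 0.06 without si_NC replicate 3 (edgeR, adjusted p = 0.388) to 0.14 without si_NC replicate 1 (edgeR, adjusted p = 0.0264). MAEA (ENSG00000090316.16, chromosome 4 from 1289887 to 1340147, plus strand), the RING partner of both, had 52.3 to 56.2 CPM in si_NC and 53.5 to 54.6 CPM in si_GRB2. Its log2 fold change was −0.01, with a 95% interval from −0.09 to 0.08, so a change as large as that of RMND5A lay outside the interval. The 2 paralogs were nearly level in the control cells. RMND5A made up 51.4%, 53.6% and 53.5% of the summed FPKM (fragments scaled for gene length and library size) of RMND5A and RMND5B in si_NC, and 39.7%, 41.6% and 40.8% in si_GRB2. The mean share went from 52.8% ± 1.23 to 40.7% ± 0.974 (SD, n = 3 each), described without a test because RMND5A chose the list. In FPKM, which are not scaled by TMM, the RMND5B groups did not overlap, at 8.25 to 8.66 in si_NC and 9.12 to 9.45 in si_GRB2. RMND5B was not called there either (limma on log2(FPKM + 1), adjusted p = 0.081). RMND5A and RMND5B together reached 17.8 ± 0.0404 FPKM in si_NC and 15.7 ± 0.28 FPKM in si_GRB2 (SD, n = 3 each). For each unit of MAEA mRNA this was 4.01 ± 0.186 in si_NC and 3.44 ± 0.0656 in si_GRB2 (SD, n = 3 each). These are mRNA levels, and the amounts of the proteins were not measured in these libraries.

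**Figure D1:**
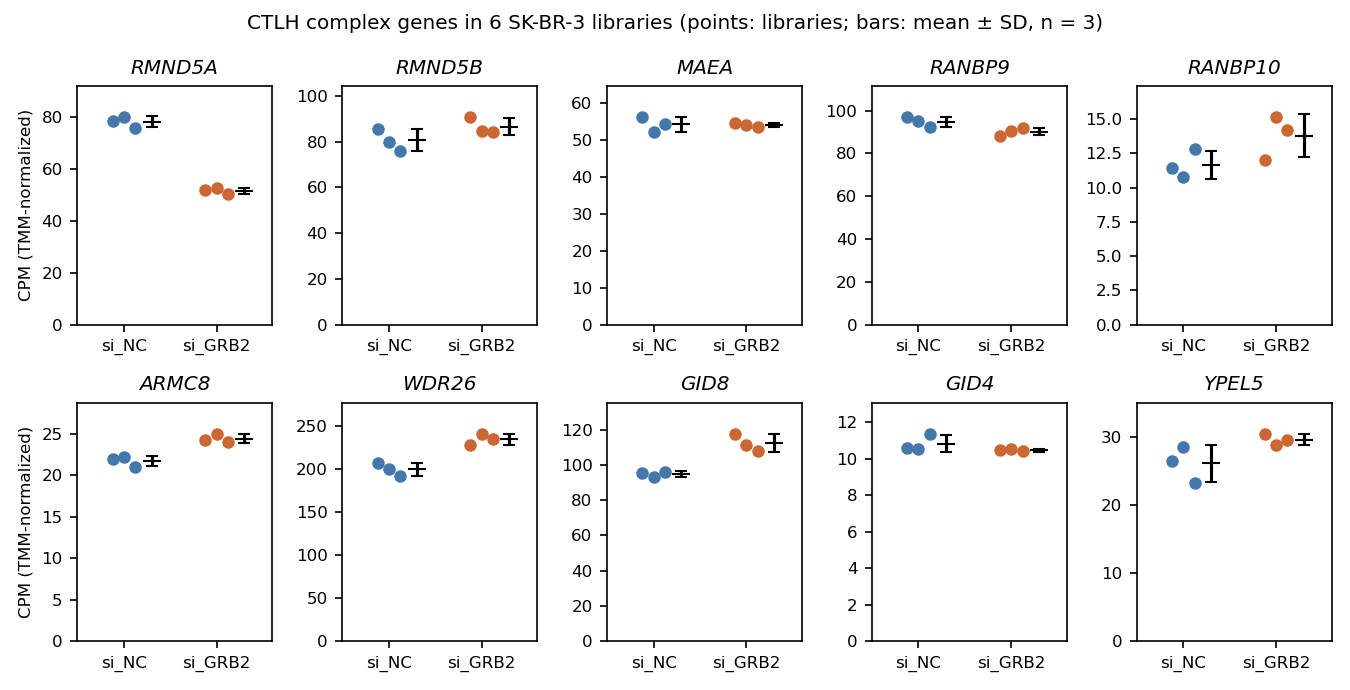
TMM-normalized CPM (y axes from 0) of the 10 CTLH complex genes in each of the 3 si_NC and 3 si_GRB2 libraries, with mean ± SD to the right of the points. RMND5A went from 78.1 to 51.5 CPM, while WDR26, GID8, ARMC8 and YPEL5 were higher in all 3 si_GRB2 libraries than in any si_NC library.

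Among the 9 other subunits, 4 rose, 0 fell and 5 did not pass an adjusted p under 0.05 in edgeR's quasi-likelihood test. That is 44.4% called, beside 30.6% of all 15801 tested genes. These shares come from genes of unlike level. GID4 had the lowest si_NC mean of the 9, at 10.8 CPM, and many tested genes lay well below it. Whether the 9, or any other list given here, differed from genes of similar level was not tested. Called higher were 15.2% of all tested genes. At an unadjusted p under 0.05, 6 were higher and 0 lower. The share of all tested genes at that unadjusted cutoff was not counted. The 6 therefore stands here without a background and is not read as a result about the complex. DESeq2 called 2 higher and 0 lower. DESeq2 called 27.3% of all genes it tested, so its 2 of 9 were not above that background. The median log2 fold change of the 9 was 0.17, beside 0.0019 over all tested genes, and the values ran from −0.07 to 0.24. All 4 rises were small, with folds from 1.12 to 1.18. The libraries of both groups did not overlap in 5 of the 9 genes, where 42.3% of all tested genes showed no overlap. In 4 of them si_GRB2 was the higher group, which held for 21.1% of all tested genes.

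Of the scaffold subunits, GID8 and ARMC8 passed and RANBP9 and RANBP10 did not, but the genes were not tested against each other. GID8 (ENSG00000101193.8, chromosome 20 from 62938147 to 62948475, plus strand), a core scaffold protein also called TWA1, rose. It had 95.6, 93.1 and 96.2 CPM in si_NC and 118, 111 and 108 CPM in si_GRB2. The lowest si_GRB2 library was above the highest si_NC library, although the si_GRB2 libraries were spread more widely. On the log2 scale the rise was 0.24 with a standard error of 0.04 (edgeR, adjusted p = 0.000106). ARMC8 (ENSG00000114098.18, chromosome 3 from 138187248 to 138298384, plus strand), which holds the substrate receptor, rose from 22.0, 22.2 and 21.0 CPM to 24.2, 25.1 and 24.0 CPM. Its groups did not overlap, and the rise was 0.17 on the log2 scale with a standard error of 0.05 (edgeR, adjusted p = 0.0205). The call on ARMC8 was lost without si_NC replicate 1, si_NC replicate 3 or si_GRB2 replicate 2, with adjusted p-values of 0.0521, 0.0916 and 0.0876, and with DESeq2 (adjusted p = 0.104).

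RANBP9 (ENSG00000010017.13, chromosome 6 from 13621498 to 13711835, minus strand), the main scaffold paralog, had 96.9, 95.03 and 92.3 CPM in si_NC and 88.2, 90.6 and 91.7 CPM in si_GRB2. The groups did not overlap, but the log2 fold change was only −0.07, with a 95% interval from −0.15 to 0.0025 and an adjusted p of 0.141 (edgeR's quasi-likelihood test). In FPKM the groups did overlap, at 20.9 to 21.3 in si_NC and 19.6 to 21.2 in si_GRB2. RANBP10 (chromosome 16 from 67723070 to 67806560, minus strand), its paralog, had 11.4, 10.8 and 12.8 CPM in si_NC and 12.04, 15.2 and 14.2 CPM in si_GRB2. The groups overlapped. Its log2 fold change of 0.24 was level with that of GID8 but had the widest 95% interval of the 9, from 0.05 to 0.44 (edgeR, adjusted p = 0.0556). It rested on 274 to 416 reads per library. Leaving out si_NC replicate 3 or si_GRB2 replicate 1 brought its adjusted p to 0.0202 and 0.0127. RANBP9 made up 92.8% to 94.1% of the summed FPKM of RANBP9 and RANBP10 in si_NC and 91.5% to 92.9% in si_GRB2. The mean shares were 93.55% ± 0.677 and 92.1% ± 0.715 (SD, n = 3 each), a difference of −1.44 percentage points, and the ranges overlapped. An exact permutation test gave a two-sided p of 0.2, but with 3 libraries against 3 it cannot go below 0.1 and so cannot decide whether the shares differed. This was the only share tested.

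WDR26 (ENSG00000162923.17 in the table, chromosome 1 from 224385146 to 224437033, minus strand), which links CTLH units, had the most reads of the 10 genes. It had 208, 201 and 193 CPM in si_NC and 229, 242 and 235 CPM in si_GRB2. All 3 si_GRB2 libraries lay above all 3 si_NC libraries. The means were 200.3 ± 7.5 and 235 ± 6.47 CPM (SD, n = 3 each). This was a rise of 0.23 on the log2 scale with a standard error of 0.03 (edgeR, adjusted p = 5.07e-05). Muskelin, encoded by MKLN1 and not among the 10, occupies a related place in the complex. It went from 112, 109.7 and 108 CPM to 114, 121 and 121 CPM, or 0.11 on the log2 scale (edgeR, adjusted p = 0.0217). That call was lost without si_NC replicate 2 or 3 or si_GRB2 replicate 2 or 3, with adjusted p-values from 0.0774 to 0.0985.

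The receptor did not pass and the modulator did, but the 2 genes were not tested against each other. GID4 (ENSG00000141034.10, chromosome 17 from 18039408 to 18068405, plus strand), the receptor that recognizes substrates by their N-terminal residues, had 10.5 to 11.4 CPM in si_NC and 10.4 to 10.5 CPM in si_GRB2. The groups overlapped, and the log2 fold change was −0.05 with a 95% interval from −0.22 to 0.12. It had 263 to 319 reads per library. YPEL5 (ENSG00000119801.13, chromosome 2 from 30146941 to 30160533, plus strand) had 26.5, 28.6 and 23.2 CPM in si_NC and 30.5, 28.8 and 29.5 CPM in si_GRB2. The groups were separated only narrowly, by si_NC replicate 2 and si_GRB2 replicate 2. The rise was 0.18 on the log2 scale with a standard error of 0.06 (edgeR, adjusted p = 0.0398). The call was lost without si_NC replicate 1 (adjusted p = 0.0651), without si_NC replicate 3 (0.231) and without si_GRB2 replicates 1, 2 or 3 (0.132, 0.0646 and 0.0918). The log2 fold change was only 0.10 without si_NC replicate 3, the lowest of the control libraries. DESeq2 did not call it either (adjusted p = 0.0834).

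Levels of different genes were compared in FPKM, which divides by gene length. In si_NC, RANBP9 was highest with 21.0 ± 0.254 FPKM, followed by GID8 with 16.6 ± 0.772, WDR26 with 14.4 ± 0.0802 and RMND5A with 9.38 ± 0.2 FPKM (SD, n = 3 each). RMND5B had 8.39 ± 0.237, YPEL5 6.12 ± 0.49 and MAEA 4.44 ± 0.201 FPKM (SD, n = 3 each). ARMC8, GID4 and RANBP10 were lowest, at 1.78 ± 0.0321, 1.71 ± 0.139 and 1.45 ± 0.181 FPKM (SD, n = 3 each). Of the 9 neighbouring pairs in this order, 7 had ranges that did not overlap in si_NC, and the exceptions were ARMC8 with GID4 and GID4 with RANBP10. Muskelin lay between RMND5B and YPEL5, at 6.85 ± 0.13 FPKM, and UBE2H above the whole complex, at 33.9 ± 1.3 FPKM (SD, n = 3 each). In si_GRB2, RMND5A at 6.21 to 6.64 FPKM lay below YPEL5 at 7.13 to 7.21 FPKM. GID8, at 19.7 to 20.6 FPKM, then overlapped RANBP9, at 19.6 to 21.2 FPKM. RMND5A made up 11% ± 0.209 of the FPKM summed over the 10 genes in si_NC and 6.99% ± 0.106 in si_GRB2 (SD, n = 3 each). The 10 genes summed to 85.3 ± 1.11 FPKM in si_NC and 91.3 ± 2.33 FPKM in si_GRB2 (SD, n = 3 each). FPKM are not scaled by TMM, and the median difference of log2(FPKM + 1) over genes with a mean FPKM of at least 1 was 0.0364, toward si_GRB2. Dividing CPM by the exon length in GENCODE 44 gave the same order of the 10 genes in si_NC.

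**Figure D2:**
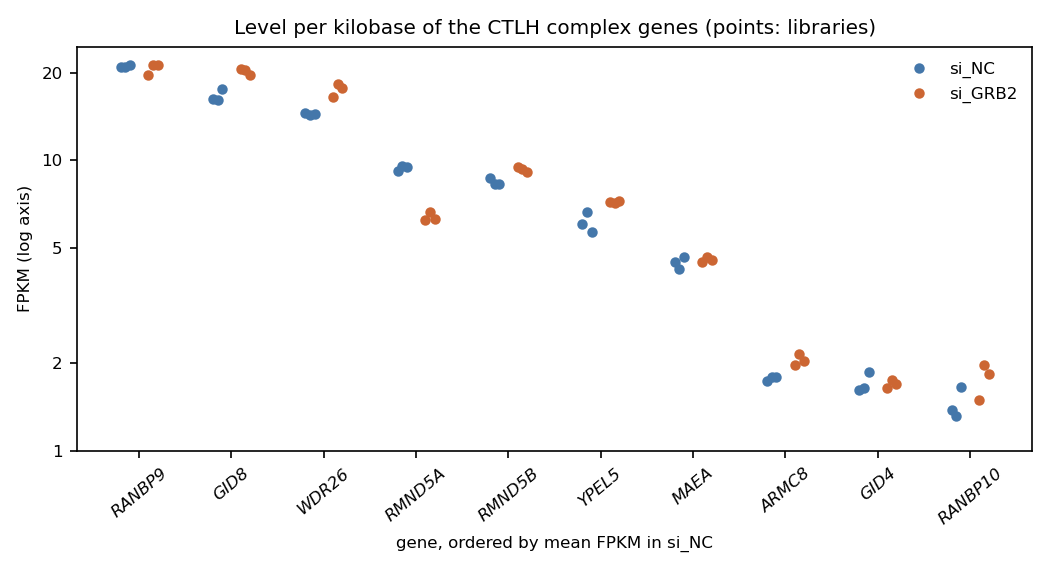
FPKM (log axis) of each CTLH complex gene in the single libraries, ordered by the mean in si_NC from RANBP9 (21.0) to RANBP10 (1.45). RMND5A went from 9.38 to 6.38 FPKM and passed below YPEL5.

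For several members, reads could be shared with other genes in GENCODE 44. NHP2, on the opposite strand, overlaps the exons of RMND5B by 414 bases and had 303% of its reads. NHP2 fell by 0.12 on the log2 scale (edgeR, adjusted p = 0.00547). NOL7, also on the opposite strand, overlaps the exons of RANBP9 by 562 bases and had 188% of its reads, and its difference was 0.06 on the log2 scale (edgeR, adjusted p = 0.137). The libraries were strand-specific, but whether the counting used strand is not given in the sources used here, so the values of RMND5B and RANBP9 are uncertain to that extent. RMND5A shares 658 bases at 98.8% identity with ANAPC1P2, a long noncoding gene, which had 2.5% of the reads of RMND5A and differed by −0.13 on the log2 scale (edgeR, adjusted p = 0.651). The processed pseudogenes ARMC8P1 and YPEL5P2 match 1297 bases of ARMC8 at 90.7% and 359 bases of YPEL5 at 91.1% identity, and their reads were not analysed here. No stretch of at least 150 bases with 90% identity was found between RMND5A and RMND5B or between RANBP9 and RANBP10.

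The genes around the complex came from lists chosen by function, with earlier results of these data known. Of 5 conjugating enzymes, 1 rose, 1 fell and 3 did not pass, which is 40% called beside 30.6% of all tested genes. UBE2H, the dedicated partner, had 270 to 279 CPM in si_NC and 261 to 273 CPM in si_GRB2. Its log2 fold change was −0.05 with a 95% interval from −0.11 to 0.01 (adjusted p = 0.234, edgeR's quasi-likelihood test). Of the UBE2D family, broadly used conjugating enzymes that serve many ligases, UBE2D1 fell from 28.1 to 29.4 CPM to 24.6 to 24.9 CPM (log2 fold change −0.22, adjusted p = 0.00187) and UBE2D4 rose from 33.6 to 36.8 CPM to 38.7 to 41.7 CPM (0.22, adjusted p = 0.00305). Both kept their calls with each library left out.

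Of 12 genes whose proteins have been described as substrates or partners of CTLH complexes, 4 rose, 5 fell and 3 did not pass. That is 75% called, beside 30.6% of all tested genes, in both directions and with a median log2 fold change of −0.0851. The 2 shares are not alike in level. The lowest si_NC mean among the 12 was 13.37 CPM (HDAC6), while all tested genes included some with far fewer reads. Whether the list differed from genes of similar level was not tested. HDAC6, a cytoplasmic deacetylase, went from 13.4, 12.2 and 14.5 CPM to 17.2, 17.9 and 18.8 CPM, a rise of 0.42 on the log2 scale (edgeR, adjusted p = 0.000294). HMGCS1, an early enzyme of cholesterol synthesis, went from 56.4, 59.1 and 57.9 CPM to 76.1, 74.9 and 73.95 CPM, a rise of 0.38 (edgeR, adjusted p = 1.17e-06). NMNAT1, which makes nuclear NAD, rose by 0.36 on the log2 scale (edgeR, adjusted p = 0.00139). UNG, a uracil-removing DNA repair enzyme, went from 88.6, 97.7 and 85.9 CPM to 68.1, 71.6 and 75.6 CPM, a difference of −0.34 on the log2 scale (edgeR, adjusted p = 6.61e-05). In each of these 4 genes the groups did not overlap, and the calls held with each library left out. HBP1, a transcriptional repressor, also rose (0.19). DDX21, an RNA helicase, fell by 0.26 on the log2 scale. The glycolytic enzyme PKM fell by 0.17, ARHGAP11A by 0.13 and the lactate dehydrogenase gene LDHA by 0.09 on the log2 scale. LDHA lost its call without si_NC replicate 2 (edgeR, adjusted p = 0.0505) or si_GRB2 replicate 2 (0.0748). ZMYND19 and DDX50 had log2 fold changes of −0.09 and −0.08 and were among the 3 that did not pass. None of the 12 reached the fold limit of 1.5. Of the 4 paralogs of YPEL5, 3 had enough reads (YPEL4 had 1 to 6 reads per library), and 0 passed in either direction, at an unadjusted p under 0.05 or with DESeq2.

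**Figure D3:**
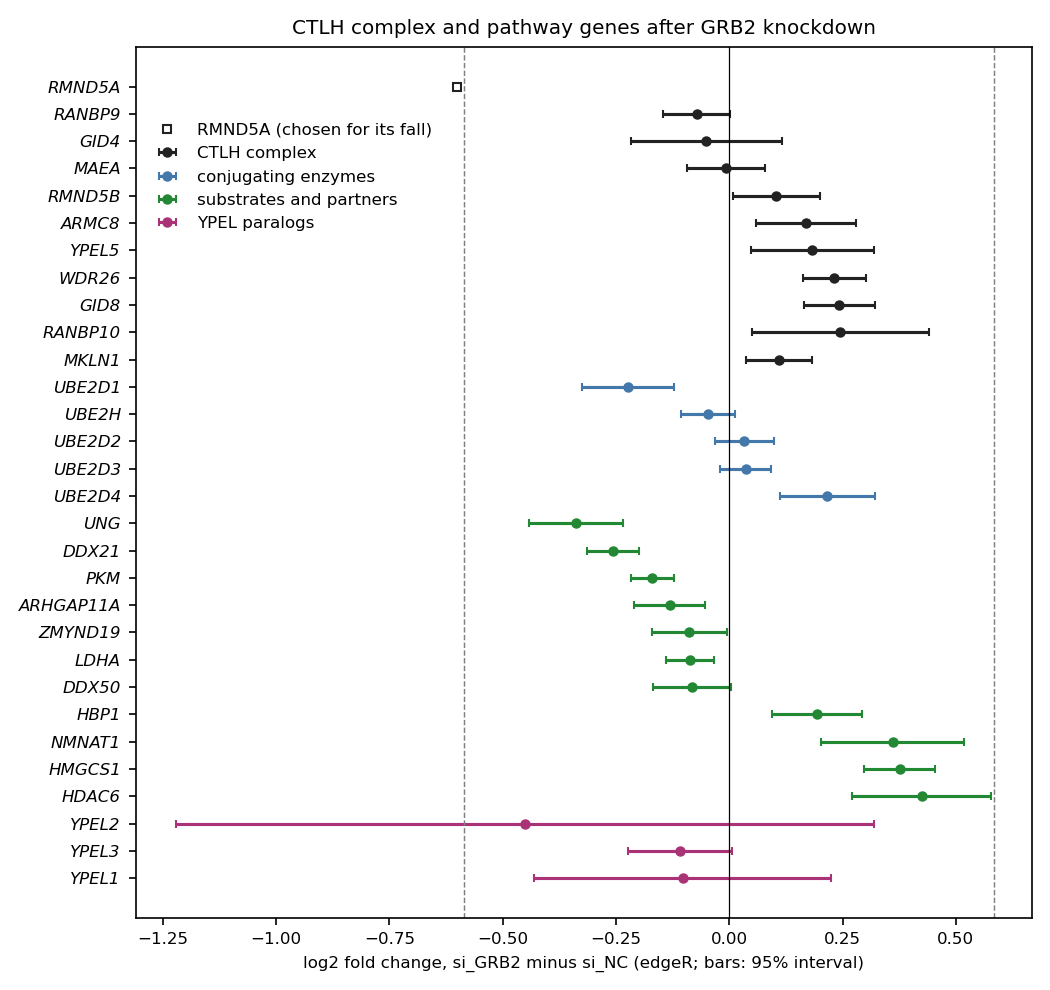
Log2 fold changes (si_GRB2 minus si_NC, edgeR) with 95% intervals for the CTLH complex genes and MKLN1, the conjugating enzymes, the substrates and partners (1 of the 12 is not shown), and the tested YPEL paralogs, with dashed lines at the fold limit of 1.5. RMND5A, shown without an interval because it chose the list, lies at −0.60, and the other genes of the complex between −0.07 and 0.24.

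Other multi-subunit RING ligases were set beside the complex as a description. Of 14 genes of the anaphase-promoting complex, 0 rose and 3 fell (CDC27 by 0.25, ANAPC2 by 0.20 and ANAPC5 by 0.13 on the log2 scale), with a median log2 fold change of −0.0487. That is 21.4% called, below the 30.6% of all tested genes. At an unadjusted p under 0.05, 1 was higher and 5 were lower, and the share of all tested genes at that cutoff was not counted. DESeq2 called 0 higher and 3 lower, where it called 27.3% of all genes it tested. Of 10 cullins and their RING subunits, 2 rose (CUL5 by 0.25 and CUL9 by 0.20) and 1 fell (RBX1 by 0.14), with a median log2 fold change of 0.067. That is 30% called, near the background of 30.6%. Of the 10 log2 fold changes, 8 were above 0 and 2 below, where 50.4% of all tested genes were above 0. The libraries of both groups did not overlap in 6 of the 10, beside 42.3% of all tested genes. In 5 of those, si_GRB2 was the higher group, which held for 21.1% of all tested genes. These lists were not tested against the CTLH genes.

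Among 10623 genes with a mean of at least 5 CPM, the 3 with profiles nearest to that of RMND5A over the 6 libraries were MAFK, UBALD2 and CD24. The distance is the Euclidean distance of log2 CPM after subtracting each gene's mean. It was 0.0626, 0.0635 and 0.0669 log2 units. MAFK went from a mean of 128 to 83.1 CPM, UBALD2 from 28.13 to 18.96 CPM and CD24 from a mean of 1200.0 to 806 CPM. Their log2 fold changes were −0.622, −0.568 and −0.575. The distance includes the difference between the groups, so genes with a fall close to that of RMND5A and little spread come nearest. Shared regulation with RMND5A was not tested.

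**Figure D4:**
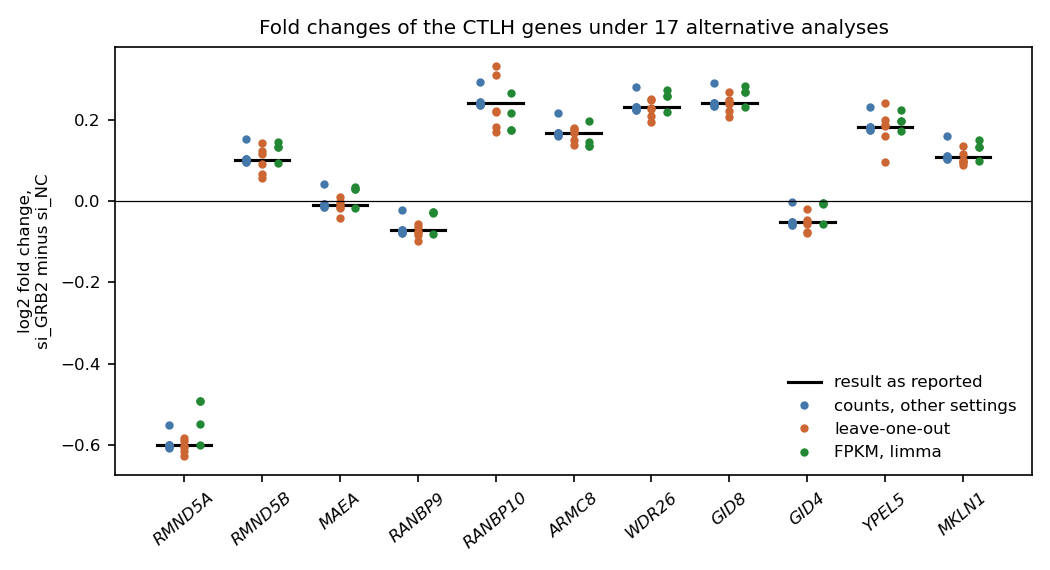
Log2 fold changes of the 10 CTLH complex genes and MKLN1 as reported (black lines) and under 17 alternative analyses (points), grouped as other settings on counts, single libraries left out, and limma on FPKM. RMND5A stayed between −0.63 and −0.49, WDR26 between 0.20 and 0.28 and GID8 between 0.21 and 0.29, while MAEA lay on both sides of 0.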

How the data were processed

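Reads were trimmed by the authors and mapped to GRCh38 with HISAT2, and the deposited tables hold counts of uniquely mapped reads per gene and FPKM. The annotation release and the counting tool are not given in the sources used here. The 15801 genes that passed filterByExpr were scaled by TMM in edgeR 4.0.16 under R 4.3.3. Groups were compared by its quasi-likelihood test without covariates, with p-values adjusted by Benjamini-Hochberg over all genes kept. Standard errors are the log2 fold change divided by the square root of F. Columns of other samples numbered 0. The scripts were tested on simulated data. Positions and overlaps came from GENCODE 44 (GRCh38), which holds 99.7% of the gene identifiers, and similar transcripts from blastn. Groups came from the library descriptions.

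The 10 members and all lists were chosen with earlier results of these data known. Named genes were the members, MKLN1, UBE2H, GRB2, up to 4 genes per list with the largest change among those with an adjusted p under 0.05, the 3 nearest profiles, and genes sharing reads. HBP1, DDX21, PKM, ARHGAP11A, LDHA, ZMYND19 and DDX50 were named after their values were seen, to describe their list, of which 1 further gene is counted but not reported here. Alternatives were DESeq2 1.42.0, other scalings and filters, limma 3.58.1 on FPKM, a replicate block, and single libraries left out. Figures were drawn with matplotlib 3.10.9.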

Additional observations from a re-analysis of the deposited data

How the results depend on the processing

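The number of the 9 members other than RMND5A with an adjusted p under 0.05 was 4. It was 2 with DESeq2 (27.3% of all genes called) and 2 with limma on log2(FPKM + 1) (4.68%). On log2(FPKM + 0.1) it was 2 (5.13%), and on median-centred log2(FPKM + 0.1) it was 2 (9.84%). These limma shares are over all 29912 genes with FPKM, including those of low level. Over the 10888 genes with a mean FPKM of at least 1, limma on log2(FPKM + 1) called 3 of the 9 members and 24.7% of all. With at least 10 counts in every library the number in edgeR was 4 (33%). With an adjusted p under 0.01 it was 2, and the share of all genes at that limit was not counted. With single libraries left out it ran from 2 (without si_GRB2 replicate 2, 23.4%) to 4 (without si_NC replicate 2, 24.1%, or si_GRB2 replicate 1, 26.5%). It was 5 with the replicate block (30.4%) and 5 with no filter on low counts (15.9%). It was 6 with library totals only (32.8%), which moved the median of all genes to 0.0521. The main test did not pair the libraries by number. Residual correlations of libraries with the same number were 0.286, −0.107 and 0.0873, and those with different numbers ran from −0.328 to 0.277. With 3 libraries per group these values cannot settle whether the numbers mark pairs. WDR26 and GID8 kept their calls under all 17 alternatives, ARMC8 lost its call in 8 and YPEL5 in 9. Among 153 refits of the 9 members, 129 gave the same call, 17 lost significance and 7 became significant. MAEA, which was not called, changed sign in 5. RMND5A ran from −0.63 to −0.49 on the log2 scale. The cullins that rose numbered 1 with DESeq2. The RANBP9 share differed by −2.3 percentage points in CPM, which is not divided by length. Why DESeq2 and limma called fewer members was not tested. The scalings by library totals, by upper quartiles and by the FPKM median, and the libraries left out for the lists, were chosen after seeing the data. RANBP10 and GID4 had the fewest reads of the members.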
